A study of Mus musculus with 2 samples.

Results

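Interferon-stimulated genes are the antiviral and antimicrobial genes that cells switch on when an interferon binds its receptor. Of the 48 genes listed here, 47 were named by at least 1 probe set of the array, out of 19324 genes named in all. They were chosen by name, as 40 genes known mainly as targets of type I interferon and 8 guanosine triphosphatases (GTPases) known mainly as targets of interferon gamma. The listing is a simplification, because most of these genes answer to both kinds of interferon. The samples were naive CD8+ T cells and proliferating CD8+ T cells taken 72 h after activation, both purified from pmel-1 mice, which carry a transgenic T cell receptor for a melanocyte antigen. How the cells were activated, the age of the mice and any interferon given were not stated in the sources used here. Each group was 1 RNA pool from 4 independent experiments on 1 Affymetrix whole-genome mouse array, so the spread between experiments cannot be seen, nothing below was tested, and precision is limited by having 1 array a group. In such bulk samples, fewer cells of a type and less RNA per cell cannot be told apart.

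Type I interferons, the alpha and beta families, bind a receptor of IFNAR1 and IFNAR2 chains, and signal through the kinases JAK1 and TYK2. A complex that holds STAT2 and IRF9 then binds the interferon-stimulated response element in promoters. Interferon gamma, made by T cells and natural killer cells, binds IFNGR1 and IFNGR2, signals through JAK1 and JAK2, and acts on promoters that carry the gamma-activated site. T cells both make interferon gamma and answer to interferons, and naive T cells carry a basal level of this programme.

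Interferon-stimulated genes were mostly lower in activated than in naive CD8+ T cells. By the size rule, a ratio of at least 1.4 with values under 100 raised to 100 and a difference above 100, 33 members were lower, 2 were higher and 9 were neither, among 44 members with at least 1 value of 100. Across the array, 20.6% of 9842 genes measured in this way were lower and 23.7% were higher, while 75% of the measured members were lower. Ifit1bl1, Usp18, Ifit3, Ifit1, Samd9l and Rtp4 had the lowest ratios, and the higher members were Ifih1 and Gbp3, each by less than 1.5-fold. The median log2 ratio of activated over naive was -1.01 over the measured members and 0.01 over all measured genes. Of the 48 listed genes, Ifi44 was not analysed here, Isg15 and Tgtp1 were read only by probe sets shared with other genes, and Mx2 lay under 100 on both arrays. A further 6 members, namely Usp18, Ifit1, Rsad2, Oasl1, Oasl2 and Mx1, entered the count through the naive array alone, so that they could only be called lower or neither. Among the 38 members at 100 or more on both arrays, 27 were lower and 2 higher, with a median of -0.97, against 21.0% lower and 23.1% higher among 8395 such genes. A difference of at least 2-fold was seen downward in 22 of 44 measured members, against 9.19% of all measured genes, and one of at least 4-fold in 6 members, against 1.67%.

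**Figure D1:**
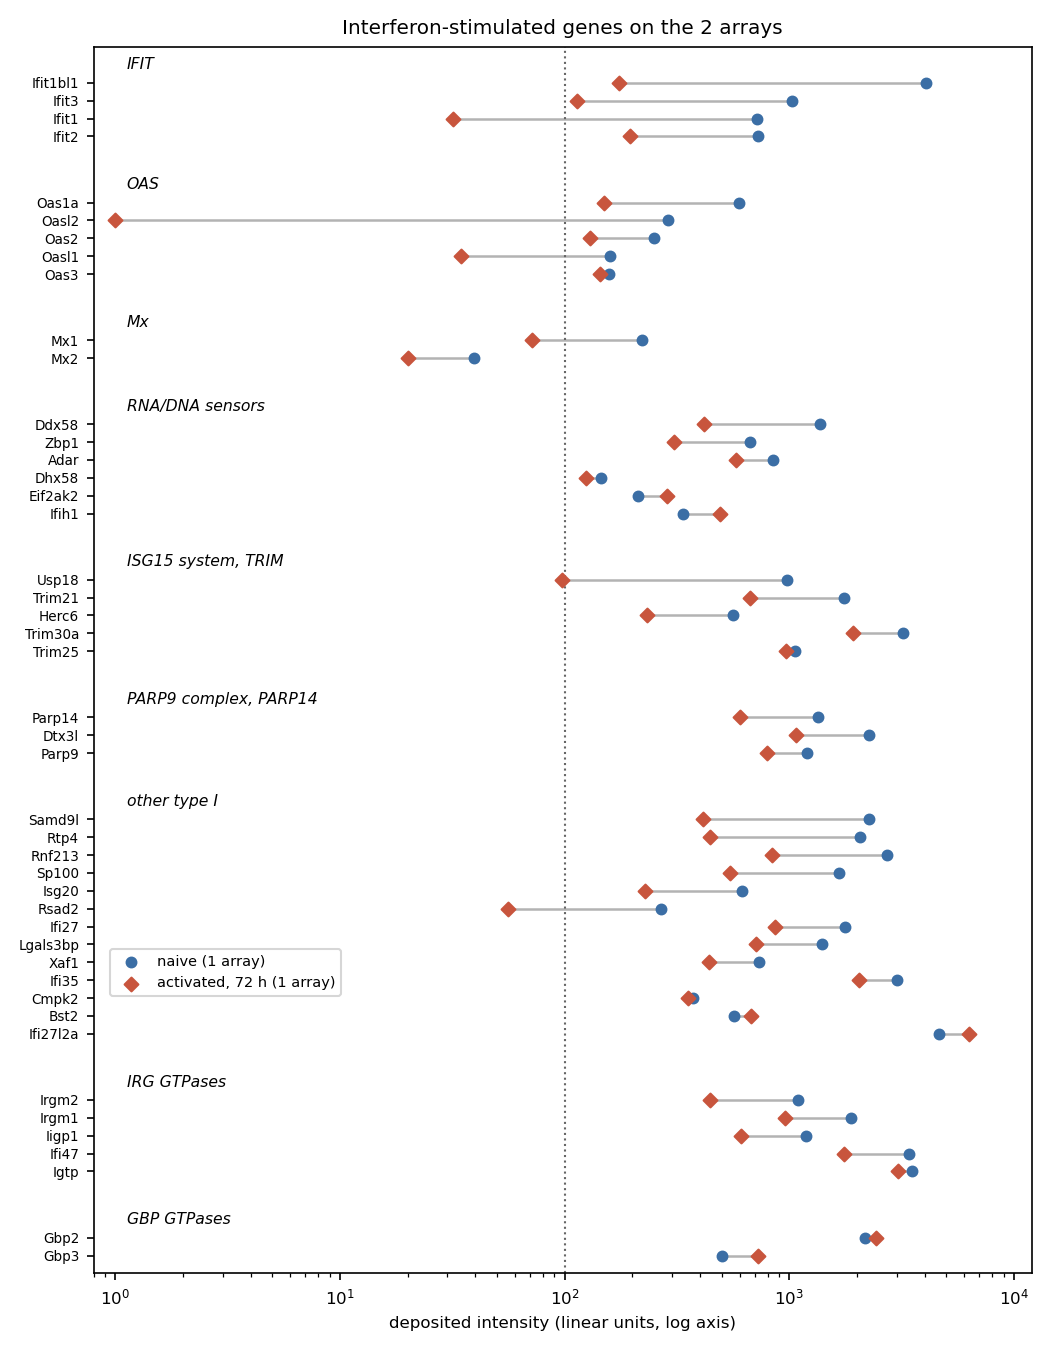
Deposited intensity (linear units on a log axis) of the 45 members with a probe set of their own, on the naive array (circles) and the activated array (diamonds), grouped by role; the dotted line marks 100. Diamonds lie to the left of circles except for Ifih1, Eif2ak2, Bst2, Ifi27l2a, Gbp2 and Gbp3, and the longest gaps belong to Oasl2 (at 1 on the activated array), Ifit1bl1, Ifit1, Usp18 and Ifit3.

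The type I induced members and the gamma-induced GTPases were compared with each other as groups. The type I members were lower in 29 of 37 measured genes and higher in 1, with a median log2 ratio of -1.12. The GTPases were lower in 4 of 7 and higher in 1, with a median of -0.96. Among all measured genes, 20.6% were lower and 23.7% higher. The 6 members that entered through the naive array alone were all type I genes, and could not be called higher. At 100 or more on both arrays, 23 of 31 type I members were lower, with a median of -1.03, and the GTPase values were unchanged. Over all measured members the difference of the medians was -0.16, and the ranges overlapped. Type I members spanned -4.54 to 0.54 on the log2 scale and included each of the 6 members at least 4-fold lower, while the 7 measured GTPases spanned -1.30 to 0.52. Of those at least 4-fold lower, Usp18 and Ifit1 entered through the naive array alone. Tgtp1, left out of the GTPase span because its probe set is shared, gave -1.57. The 3 measured GTPases of this kind outside the list were all lower, Gbp8 by 9.07-fold. No test of the difference between the groups was possible with 1 array a group.

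**Figure D2:**
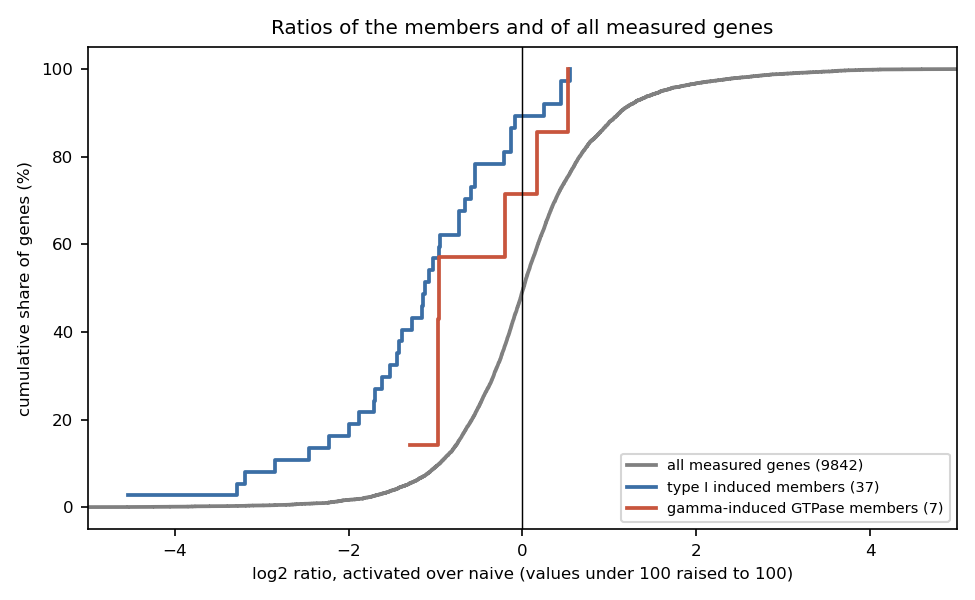
Cumulative share of genes (vertical axis, percent) by log2 ratio of activated over naive cells (horizontal axis) for the 37 measured type I members, the 7 measured GTPases and the 9842 measured genes. At a ratio of 0 both member curves stand above the curve of all measured genes, and the GTPase curve begins only at -1.30.

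The promoters of 8 members are shown because the lower, the nearly level and the gamma-induced members can be compared in them. RefSeq start sites of mouse build GRCm38.p6 were matched for 36 of 48 members, in windows from 250 bases before to 50 after each start. The windows were searched on both strands for the core of the response element, which is GAAA, 2 bases of any kind and GAAA again (TTTC, 2 bases and TTTC on the other strand), and for the gamma-activated site, TTC, 3 bases of any kind and GAA, which is its own reverse complement. The stretches below are the 140 bases before the start site, on the gene's strand, and capitals mark either motif.
Isg15, chr4:156200819-156200958, minus strand: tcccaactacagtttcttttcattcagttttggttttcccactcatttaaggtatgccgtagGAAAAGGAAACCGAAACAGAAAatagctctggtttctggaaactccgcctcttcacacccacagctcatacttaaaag
Ifit1, chr19:34640749-34640888, plus strand: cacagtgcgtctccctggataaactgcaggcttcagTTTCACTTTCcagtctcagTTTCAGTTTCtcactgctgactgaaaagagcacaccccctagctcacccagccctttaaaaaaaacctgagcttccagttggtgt
Rsad2, chr12:26456453-26456592, minus strand: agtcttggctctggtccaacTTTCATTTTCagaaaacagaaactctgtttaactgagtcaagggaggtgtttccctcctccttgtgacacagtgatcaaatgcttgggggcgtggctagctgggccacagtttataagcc
Bst2, chr8:71537473-71537612, minus strand: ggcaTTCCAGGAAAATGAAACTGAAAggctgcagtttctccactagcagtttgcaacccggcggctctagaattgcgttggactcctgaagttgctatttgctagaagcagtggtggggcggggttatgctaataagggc
Igtp, chr11:58199416-58199555, plus strand: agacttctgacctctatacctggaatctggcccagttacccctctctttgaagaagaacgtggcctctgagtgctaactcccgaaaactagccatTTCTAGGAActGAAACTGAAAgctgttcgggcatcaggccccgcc
Irgm2, chr11:58214837-58214976, plus strand: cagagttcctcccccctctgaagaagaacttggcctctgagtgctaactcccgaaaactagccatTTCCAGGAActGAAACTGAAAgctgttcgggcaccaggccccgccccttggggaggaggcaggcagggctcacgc
Tgtp1, chr11:48992247-48992386, minus strand: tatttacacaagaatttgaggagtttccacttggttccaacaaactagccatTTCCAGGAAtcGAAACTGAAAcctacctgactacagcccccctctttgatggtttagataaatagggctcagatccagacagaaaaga
Gbp2, chr3:142620523-142620662, plus strand: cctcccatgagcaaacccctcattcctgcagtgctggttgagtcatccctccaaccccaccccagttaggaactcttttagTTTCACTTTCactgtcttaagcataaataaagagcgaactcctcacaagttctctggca

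The response element core stood in the windows of 19 of the 36 members (52.8%), against 3.99% of all 27025 genes of the table. The gamma-activated site stood in 10 of 36 members (27.8%), against 9.55% of genes. By window rather than by gene, all 32851 windows held the core in 3.44% and the gamma site in 8.30%. Among the 7 GTPases with a window, 6 held the core and 3 held both motifs. Of 29 type I members, 13 held the core and 7 the gamma site. In Isg15 the cores overlap and start 78, 72 and 66 bases before the start site, and in Ifit1 they start 104 and 85 bases before it. In Bst2 the gamma site overlaps the first of 2 overlapping cores. Igtp, Irgm2 and Tgtp1, all members of the immunity-related GTPase family on chromosome 11, share a tandem arrangement in which the core on the gene's strand starts 11 bases after the first base of the gamma site, leaving 2 bases between them. This arrangement, noticed after the sequences were seen, occurred in 5 genes of the whole table, the others being Tgtp2 and Gm12185. Members were lower both with and without these letters. With the core, 10 of 17 measured members were lower, 2 higher and 5 neither, with a median log2 ratio of -0.98. Without it, 14 of 16 were lower and none was higher, with a median of -1.02. A match describes letters in this window and no binding was measured.

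**Figure D3:**
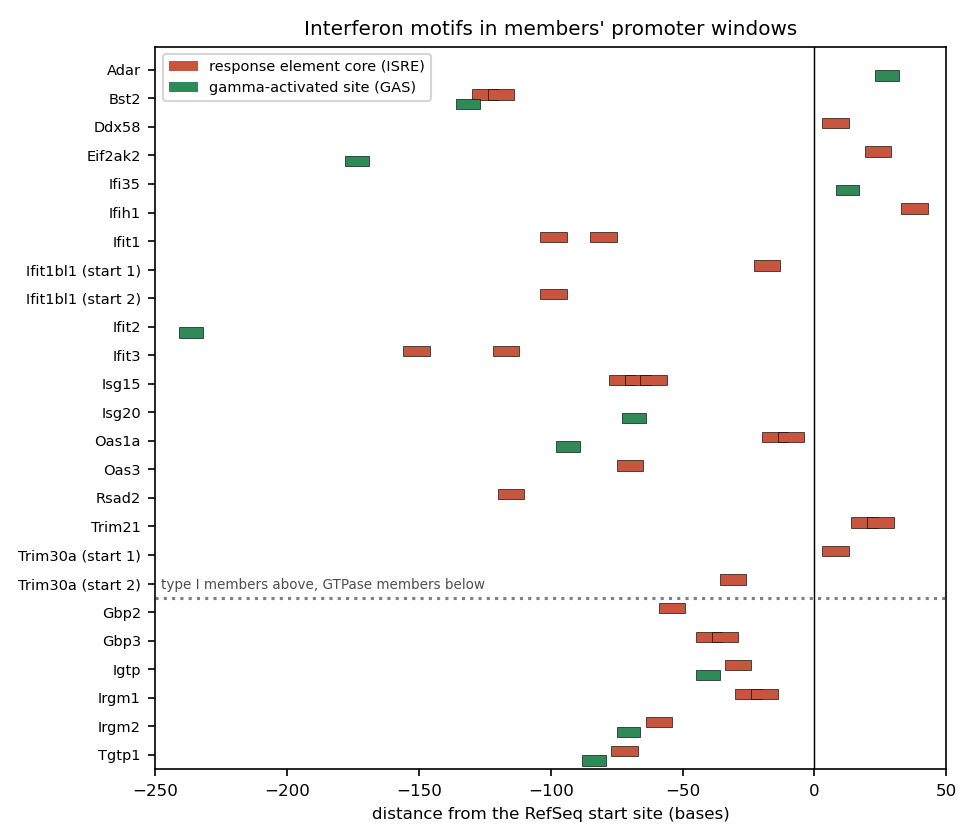
Positions of the response element core (upper, red) and the gamma-activated site (lower, green) in members' promoter windows, as distance in bases from the RefSeq start site, for windows with at least 1 match. In Igtp, Irgm2 and Tgtp1 the gamma site lies just before the core, and the core farthest from a start is that of Ifit3, 156 bases before it.

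The Ifit genes, whose products bind viral RNA and block its translation, were lower in 4 of 4 cases, against 20.6% of all measured genes. Their median log2 ratio was -3.02, with a range of -4.54 to -1.89. Ifit1bl1 gave 4066 in naive and 175 in activated cells (23.2-fold lower), the lowest ratio of the 8395 genes at 100 or more on both arrays. Ifit3 was at 1032 and 113 (9.13-fold lower). Ifit1 was at 719 and 31.9 (at least 7.19-fold lower, a bound because the activated value lay under 100). Ifit2 was at 724 and 196 (3.70-fold lower). The Ifit genes lie together on chromosome 19, and the RefSeq spans of Ifit1bl1 and Ifit1 overlap, so that neighbouring or near-identical copies could share signal, and each was read by 1 probe set of its own.

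The oligoadenylate synthetase genes, many of whose products sense double-stranded RNA and activate RNase L, were lower in 4 of 5 cases. The share lower among all measured genes was 20.6%. Oas1a gave 596 and 150 (3.98-fold lower), Oasl2 at 288 and 1, the lowest deposited value (at least 2.88-fold lower). Oas2 was at 249 and 129 (1.93-fold lower) and Oasl1 at 158 and 34.6 (at least 1.58-fold lower). Oas3, at 157 and 143, did not pass the size rule. Oas2 and Oasl1 lost the call with a fold minimum of 2, with a difference minimum of 200 and with a floor of 200, which left Oas1a and Oasl2 as the lower genes of this family. Of the Mx genes, which encode dynamin-like antiviral GTPases, Mx1 was at 221 and 71.8 (at least 2.21-fold lower) and Mx2 was under 100 on both arrays, at 39.4 and 20.1. The OAS and Mx values lie near or under 100 on the activated array, where the ratio depends on the floor.

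Of the sensors of foreign nucleic acid, 3 of 6 were lower and 1 was higher, with a median log2 ratio of -0.38. The shares among all measured genes were 20.6% lower and 23.7% higher. The RNA helicases showed opposite directions. Ddx58, encoding RIG-I, was at 1363 and 418 (3.26-fold lower), and its 3 probe sets ranged from -1.70 to -0.51. Ifih1, encoding MDA5, was at 337 and 492 (1.46-fold higher) by its single probe set. Dhx58, encoding LGP2, a regulator of both, did not pass the rule at 144.5 and 125. Zbp1, a sensor of left-handed nucleic acid, was at 670.2 and 308 (2.18-fold lower), and its other probe set gave -2.26 on the log2 scale. Adar, the RNA-editing enzyme that keeps self RNA from being sensed, was at 844 and 578 (1.46-fold lower), with all 3 probe sets lower. Eif2ak2, encoding the kinase PKR, was at 211 and 286, with 3 probe sets between 0.18 and 0.65, none past the rule. Ifih1 did not pass after quantile normalization of the arrays, nor with a difference minimum of 200.

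The ISG15 system attaches a ubiquitin-like tag to proteins, and those of its listed genes that reached 100 on an array were lower. Usp18, the protease that removes the tag and also restrains the type I receptor, was at 975 and 97.5 (at least 9.75-fold lower). Isg15, the tag itself, was read only by a probe set shared with Gm9706, at 950.1 and 394 (2.41-fold lower). Herc6, the ligase of the mouse, was at 562 and 232 (2.42-fold lower), and all 4 of its probe sets were lower. Uba7, the activating enzyme and no member, was at 1052 and 423 (2.48-fold lower). Ube2l6, the conjugating enzyme and no member, lay under 100 on both arrays, at 80.1 and 56.9. Among the tripartite-motif genes, Trim21, a cytosolic antibody receptor, was at 1748 and 671 (2.61-fold lower) and Trim30a at 3192 and 1921 (1.66-fold lower). Trim25, a ligase of the RIG-I pathway, was at 1058 and 967 and did not pass, and its 3 probe sets ranged from -0.13 to 0.79, 1 of them higher by the rule.

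Parp9, Dtx3l and Parp14 lie side by side on chromosome 16, and the first pair encode a complex of an ADP-ribosyltransferase and a ubiquitin ligase. All 3 were lower. Dtx3l was at 2258 and 1068 (2.11-fold lower), Parp14 at 1342 and 600.0 (2.24-fold lower) and Parp9 at 1192 and 794 (a log2 ratio of -0.59). The RefSeq spans of Dtx3l and Parp9 overlap, so that their signals could be shared. The smaller of Parp14's probe sets gave -0.30. Rsad2 and Cmpk2, also direct neighbours, did not share a call. Rsad2, encoding viperin, which makes a chain-terminating nucleotide, gave 268 and 55.8 (at least 2.68-fold lower), but 2 of its 3 probe sets did not pass. Cmpk2, a mitochondrial nucleotide kinase, was at 373 and 352 and did not pass.

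Of the other type I members, Samd9l, a restriction factor that slows translation, was at 2254 and 412 (5.47-fold lower) and Rtp4, a chaperone of membrane receptors, at 2060.1 and 441 (4.67-fold lower). Rnf213, a giant ubiquitin ligase, was at 2718 and 840.0 (3.24-fold lower), Sp100, a nuclear body protein, at 1660 and 541 (3.07-fold lower), and the exonuclease gene Isg20 at 617 and 228 (2.71-fold lower). These members were bright on both arrays, so that their ratios did not rest on the floor. Smaller differences were those of Ifi27 (1764 and 861, 2.05-fold lower), the secreted glycoprotein gene Lgals3bp (1392 and 713, 1.95-fold lower), Xaf1 (729 and 440.5, 1.66-fold lower) and Ifi35 (3000.2 and 2050, 1.46-fold lower). Ifi35 passed by 1 of its 3 probe sets and Xaf1 by 1 of its 2. Bst2, the tether that holds budding virus on the cell, was at 569 and 675, and Ifi27l2a at 4616 and 6288. Neither of them passed the rule, and the RefSeq spans of Ifi27l2a and Ifi27 overlap on chromosome 12, so that the signals of this pair are uncertain as to the gene.

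The immunity-related GTPases, which attack the vacuoles of intracellular parasites, were lower in 4 of 5 measured genes, against 20.6% of all measured genes. Irgm2 was at 1090.4 and 443 (2.46-fold lower), Irgm1 at 1882 and 956 (1.97-fold lower), Iigp1 at 1188 and 606 (1.96-fold lower) and Ifi47 at 3405 and 1748 (1.95-fold lower). Igtp, next to Irgm2 in the genome and with the same tandem motif in its promoter, was at 3513 and 3047 and did not pass. Tgtp1, read only by a probe set shared with its near-identical neighbour Tgtp2, was at 5381 and 1814 (2.97-fold lower). The guanylate-binding proteins, a second family against intracellular pathogens, were not lower among the members. Gbp3 was at 503 and 723 (1.44-fold higher), a call that quantile normalization removed, and Gbp2 at 2164 and 2420.5, with both probe sets above 0 and neither past the rule. Other guanylate-binding genes were lower, namely Gbp8 (1313 and 145, 9.07-fold), Gbp6 (2350 and 815, 2.88-fold) and Gbp7 (1937 and 1214, 1.60-fold). Among these measured genes of the family, the only upward call was that of Gbp3, which a fold minimum of 2 also removed.

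Of 10 listed ligand genes 2 were measured, and the interferon gamma gene differed more, in the opposite direction to most of the GTPases. Ifng gave 72.8 in naive and 3282 in activated cells (at least 32.8-fold higher). It reached 100 on the activated array alone, so it could only be called higher or neither. Ifnb1 (33.7 and 32.0), Ifna1, Ifna2 and Ifna4 lay under 100 on both arrays, and Ifnz, at 129 and 73.4, did not pass. Of the receptor chains, 5 of 5 measured genes were lower, against 20.6% of all measured genes. Ifngr1, the binding chain for interferon gamma, was at 1820 and 913 (1.99-fold lower), and Ifngr2 at 157 and 21.0 (at least 1.57-fold lower). Ifngr2 reached 100 on the naive array alone, so it could only be called lower or neither. Ifnar1 was at 835 and 484 (1.72-fold lower) and Ifnar2 at 675 and 464 (1.45-fold lower). Il10rb, a chain shared with the interleukin-10 and lambda interferon receptors, was 2.24-fold lower. Its other probe set gave a log2 ratio of -0.09. Below the receptors, 4 of 5 genes were lower. Jak1, used by both receptors, was at 4257 and 1210 (3.52-fold lower), and Irf9 at 1333 and 479 (2.78-fold lower). Jak2 was 1.90-fold and Tyk2 1.63-fold lower, though the other probe set of Tyk2 gave a log2 ratio of -0.30. Stat2, at 192 and 131, did not pass.

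Interferon regulatory factors were lower in 4 of 5 measured cases. Irf7, the amplifier of type I responses and itself induced by interferon, was at 1415 and 338 (4.19-fold lower), and Irf1, a primary target of interferon gamma, at 3436 and 977 (3.52-fold lower). Irf8 was at 221 and 380 (1.72-fold higher). Of 7 measured inhibitors of the pathway, 2 were lower and 5 neither, near the share of 20.6% lower among all measured genes. Socs3 was at 1887 and 220 (8.58-fold lower). Pias1 was 1.61-fold lower, with measured probe sets from -1.51 to -0.03 on the log2 scale. Socs1, the main brake on interferon gamma signals, was at 271 and 191 and did not pass. The phosphatase genes Ptpn1, Ptpn2, Ptpn6 and Ptpn11 did not pass, with log2 ratios from 0.04 to 0.43. Of 5 measured genes that carry signals from nucleic acid sensors, Ikbke (1176 and 256, 4.60-fold) and Tbk1 (1.48-fold) were lower, and Mavs, Myd88 and Ticam1 did not pass. The other probe set of Tbk1 gave a log2 ratio of -0.44.

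**Figure D4:**
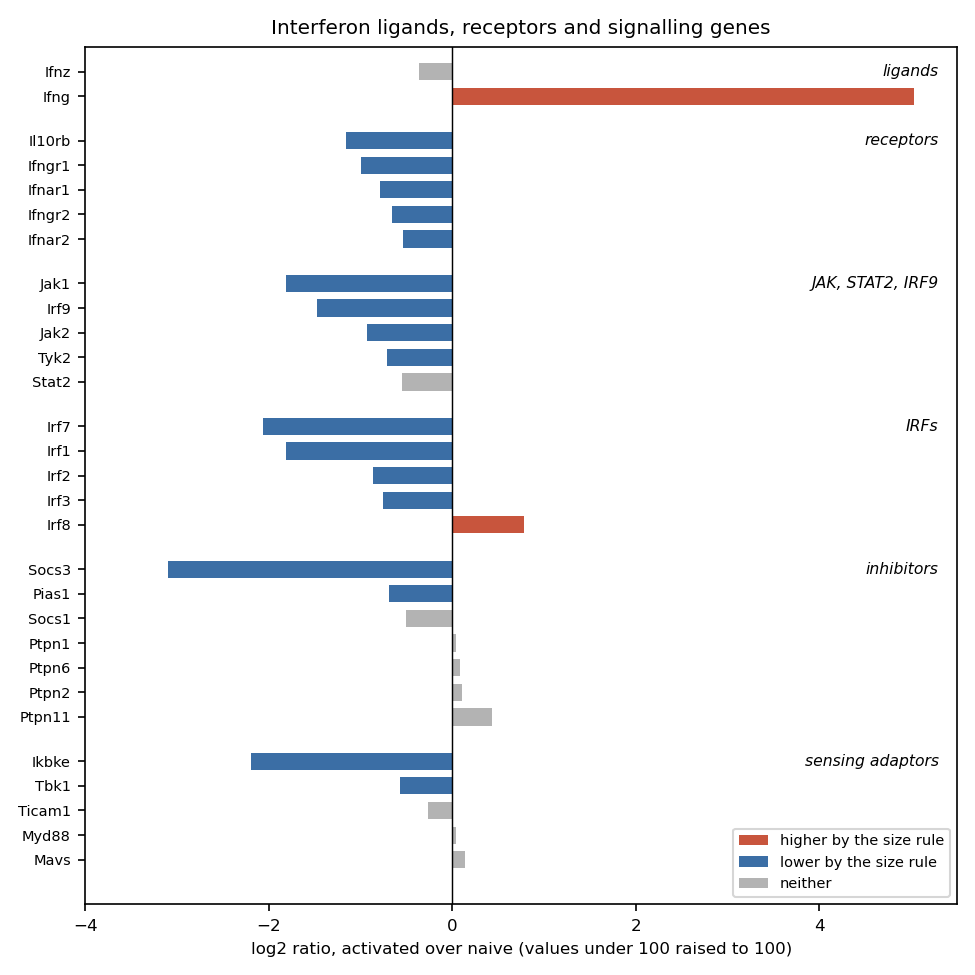
Log2 ratio of activated over naive cells (horizontal axis) for measured interferon ligands, receptors, signalling genes, interferon regulatory factors, inhibitors and sensing adaptors, coloured by the size rule. Ifng reaches 5.04 to the right, and every measured receptor bar points left.

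Genes outside the list gave the wider picture. Antigen-processing genes under interferon gamma control were lower in 4 of 9 and higher in none. Among all measured genes, 20.6% were lower and 23.7% higher. Nlrc5, the activator of class I genes, was at 2084 and 903 (2.31-fold lower), Psmb10 at 2207 and 1065 (2.07-fold lower), and Tapbp and Tap2 were 1.54-fold and 1.46-fold lower. The immunoproteasome genes Psmb8 (3468 and 3311.5) and Psmb9 (2214 and 1987) and B2m (10479 and 11471) did not pass. In a list of 56 further interferon-stimulated genes, 28 of 41 measured genes were lower and 5 were higher. Of these calls, 9 belonged to genes that reached 100 on 1 array alone, which fixed the only direction they could be called in. The median over these 41 was -0.70 on the log2 scale. Ddx60 (at least 5.08-fold), Slfn8 (4.26-fold), Trim5 (at least 3.79-fold) and Slfn5 (at least 3.59-fold) were lowest. The highest were Ifitm2 (72.3 and 589, at least 5.89-fold), Ifitm3 (135 and 589, 4.36-fold) and Ifitm1 (59.6 and 233, at least 2.33-fold), restriction factors in membranes, followed by Mlkl (13.4 and 192, at least 1.92-fold). All 3 measured Ifitm genes were thus higher, against the direction of most members. Ifitm1 and Ifitm2 reached 100 on the activated array alone, so they could only be called higher or neither. The fifth higher gene was Pnpt1 (451 and 714, 1.58-fold), named after its values were seen.

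Several members were read by more than 1 probe set of their own, which gives the only repeat within an array. Of 70 measured probe sets that name a member alone, 46 were lower, 3 higher and 21 neither. Among all measured genes, counted by 1 probe set each, 20.6% were lower and 23.7% higher. In 18 members at least 2 probe sets were measured, and in 16 of them all ratios had one sign. Trim25 and Cmpk2 were the exceptions, and no member had 1 probe set higher and another lower by the rule. The widest disagreements in size were those of Rsad2 (-1.42 to -0.21), Ddx58 and Zbp1 (-2.26 to -1.12). Probe sets of a gene share the RNA pool and are not replicates.

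**Figure D5:**
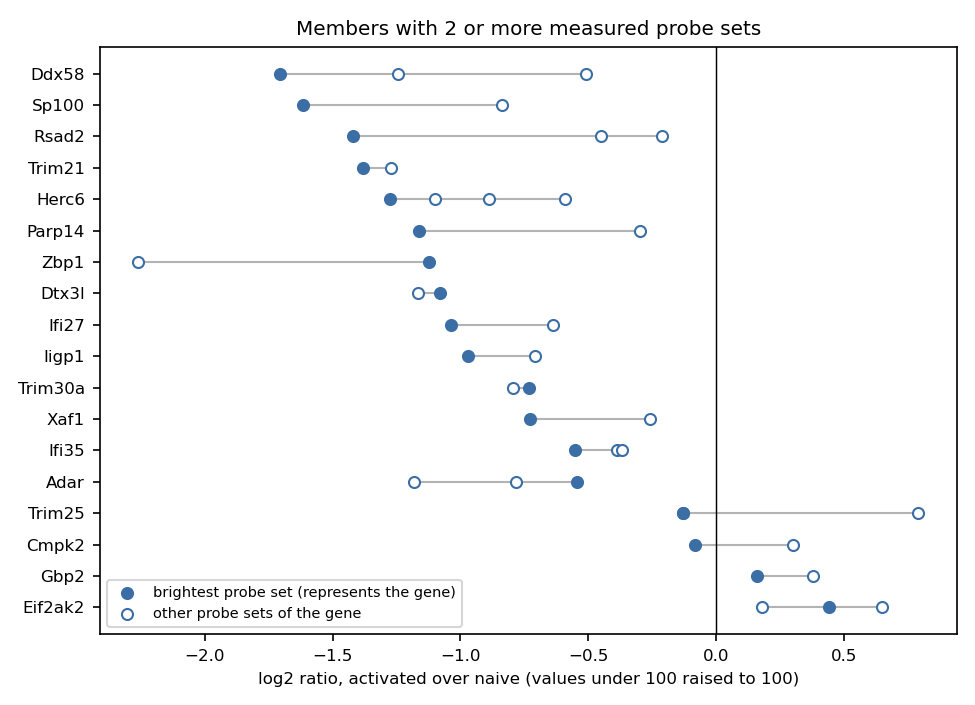
Log2 ratio of activated over naive cells (horizontal axis) for each measured probe set of the 18 members with at least 2, filled for the brightest and open for the others. Points of a member lie on one side of 0 except for Trim25 and Cmpk2.

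Transcripts of several other blood cell types were lower as well. Among all measured genes, 20.6% were lower and 23.7% higher, and each list here holds few measured genes. H2-Aa, H2-Eb1, Cd79b, Lyz2, Mpeg1, Ccr9, Tyrobp and Hbb-b2, all called lower, reached 100 on the naive array alone. Such genes could only be called lower or neither. The summed level of 7 class II and dendritic cell genes was 7347 on the naive and 992 on the activated array, with 4 of 5 measured genes lower (H2-Aa at 2007 and 83.0). For B cell genes the sum was 1109 and 503, with 2 of 4 lower, for macrophage genes 1534 and 859, with 3 of 4 lower, for natural killer genes, some of which CD8+ T cells also express, 1436 and 464, with 3 of 3 lower, and for erythroid genes 7030 and 47.9, with Hbb-b2 and Alas2 at 1 on the activated array. Plasmacytoid dendritic cell genes summed to 5941 and 1260, most of it Ccr9, which T cells also express, and Bst2, a member. Their marker Siglech (44.3 and 32.8) lay under 100 on both arrays, as did the macrophage genes Adgre1, Cd14, Fcgr1, Cd68, C1qa and C1qc and the B cell factors Ebf1 and Pax5. Neutrophil genes were at 292 and 273 in sum, with none of 1 measured gene lower and S100a9 and Csf3r at 1 on the activated array, and CD4 T cell genes at 251 and 235, with none of 1 lower. CD8 T cell genes summed to 35183 and 25810, with 2 of 6 lower. These were Cd8b1, the beta chain of the CD8 coreceptor (7725 and 3554, 2.17-fold lower), and Thy1 (1.73-fold lower), while Cd8a (6020 and 4860), Cd3e (3035 and 2724), Cd3g and Cd3d did not pass. Measured probe sets of Cd8a ranged from -1.39 to -0.31 on the log2 scale, and the one given here is the least changed. Those of H2-Aa ranged from -4.33 to -0.03, of Ccr9 from -5.47 to -0.38 and of Hbb-b2 from -6.10 to -0.18. Those of Csf1r, a macrophage gene, ranged from -0.90 to -0.20. For H2-Aa, Ccr9, Hbb-b2 and Csf1r the probe set used here is the most changed. The part of other cells' RNA in the members' values was not tested.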

How the data were processed

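Each sample was 1 pool of RNA from 4 experiments on 1 Affymetrix Mouse Genome array, grouped by its label as naive or activated. The values the authors deposited are linear intensities, 1 for each probe set. Per the labels' design text, these were made with the perfect-match minus mismatch model of dChip and invariant set normalization, and present calls with GCOS. The sources used here name no version of dChip, and neither the calls nor dChip's confidence bounds were used. Subtraction makes intensities near background unreliable, and the lowest deposited value is 1.

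Symbols came from the platform annotation. All 75 probe sets naming a member alone matched the RefSeq gene table of GRCm38.p6 with unchanged symbols. A gene was represented by its own probe set with the highest mean, and was measured when that probe set reached 100 on 1 array. Probe sets naming several genes were kept apart. Ratios raise values under 100 to 100, and a fold with 1 value under 100 is a lower bound. The size rule (1.4-fold and a difference above 100) keeps the parts of the study's own rule that intensities allow. Every member is reported, and of 56 further genes the 4 largest differences each way. The members and lists were chosen with earlier results of these data known. The procedure was tested on simulated data. Values were computed with Python 3.11.15, pandas 2.3.3 and numpy 2.4.6. Alternatives were other fold, difference and floor settings, median and quantile scaling, and other choices of probe set.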

Additional observations from a re-analysis of the deposited data

How the results depend on the processing

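The direction of the members held in each setting tried. The count of lower members ran from 22 (fold minimum of 2) to 35 (shared probe sets included) around the 33 reported, each within 1.5 times, and none of the 33 turned higher. The median log2 ratio of the members ran from -1.09 (quantile normalization) to -0.96 (median of a gene's probe sets). The count of higher members was small and unstable. It fell from 2 to 0 with a fold minimum of 2 and after quantile normalization, and to 1 with a difference minimum of 200 or with only probe sets without a suffix. For type I members it fell from 1 to 0 with a fold minimum of 2, after quantile normalization and with a difference minimum of 200. For GTPases it fell from 1 to 0 with a fold minimum of 2, only suffix-free probe sets and quantile normalization, and the count of lower GTPases fell from 4 to 1 with a fold minimum of 2. The type I median minus the GTPase median ran from -0.38 (only suffix-free probe sets) to -0.07 (genes at 100 or more on both arrays, a setting added after seeing the data). Of 335 recomputed ratios of single members 19, in 13 genes, moved by more than 0.39, the standard deviation between probe sets of the same gene over 3404 genes, and none of the members past the rule changed sign. A floor of 200 moved Usp18 to -2.29, Ifit1 to -1.85, Oasl2 to -0.53, Rsad2 to -0.42 and Mx1 to -0.15, and a floor of 50 moved Ifit1 to -3.85, Oasl2 to -2.53 and Oasl1 to -1.66. Mx1, Oas2 and Oasl1 lost the call with a difference minimum of 200, and these and Rsad2 with a floor of 200. No paired analysis was possible because each group has 1 array. For the same reason no array could be left out.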
